A study of Rattus norvegicus with 12 samples.

Results

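The matrix metalloproteinases Mmp2, Mmp3, Mmp9, Mmp11, Mmp14 and Mmp19 and the tissue inhibitors Timp1, Timp2, Timp3 and Timp4 were examined in primary rat atrial fibroblasts. These 10 genes were found by symbol among the 22850 features of the count and FPKM tables, and 9 of the 10 had counts. The fibroblasts came from the atria of Sprague-Dawley rats aged 1 to 3 days and were enriched by differential adhesion, without a sort. All cells received angiotensin II (AngII) at 1 µmol/L for 48 h in 2% serum. The AngII group received nothing else, the AngII+HNG group also received HNG at 10 µmol/L and the AngII+MOTS-c group also received MOTS-c at 5 µmol/L, each peptide given 1 h before AngII. HNG is a glycine-substituted analogue of humanin. Both humanin and MOTS-c derive from short reading frames in the ribosomal RNA genes of the mitochondrial genome. Each group had 4 libraries, 12 in all. The peptides were given at different doses, and no cells without AngII were among the samples, so every level below is one under AngII, and every difference is between groups that all received it.

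Matrix metalloproteinases are zinc-dependent proteases that cut collagens, gelatin and other matrix proteins. Most are secreted as inactive proenzymes, and some are anchored in the cell membrane. TIMPs bind the active enzymes and block them. Mmp2 is linked to both: its proenzyme is held at the cell surface by a complex of Mmp14 and Timp2, and a second, uninhibited Mmp14 molecule then cuts it. Timp2 therefore takes part in the activation of Mmp2 at low levels and inhibits it at high levels. In the heart, fibroblasts are a main source of these enzymes, which remodel the collagen network. Activation happens on the protein, which mRNA levels do not show.

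The libraries held 27960586 to 38322354 counts. The labelled cell type was checked against 10 fibroblast markers, all of which were detected in all libraries, and together they took 62731 to 70319 CPM, the unit of counts scaled to the same library total. Transcripts of other cells were present as well, with 11 cardiomyocyte markers at a summed 5869 to 7782 CPM. The mRNA was from whole cultures, in which fewer cells of a type and less RNA per cell cannot be told apart. The methods call the replicates biological, and a figure legend of the study calls them independent samples. Whether they were separate isolations or animals is not given in the sources used here. The p-values therefore measure only the spread between these libraries, which may be technical. In the names of the libraries, replicates 2 and 3 of each group carry the same number.

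Mmp2, Timp2 and Mmp14 had the highest levels of the 10 members. Levels are compared between genes as FPKM, which divides the reads of a gene by its length and by the library's depth. Over the 12 libraries, Mmp2 averaged 319 FPKM, Timp2 282 FPKM and Mmp14 279 FPKM, and the ranges of these 3 genes overlapped. Only 187 of the 18384 features with FPKM above 0 were higher than Mmp2. Among the members, Timp1 followed at a mean of 58.5 FPKM and Timp3 at 52.6 FPKM, with ranges that overlapped each other but not those of the first 3 genes. Mmp19 at 34.3 FPKM, Mmp11 at 8.34 FPKM and Mmp9 at 0.617 FPKM were each separated from their neighbours among the members. Of the metalloproteinases outside the 10, Mmp23 lay above Timp1 and Mmp12 above Mmp19 in mean FPKM. Timp4 averaged 0.108 FPKM, and Mmp3 was listed at 0 in all 12 libraries, within the range of Timp4.

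**Figure D1:**
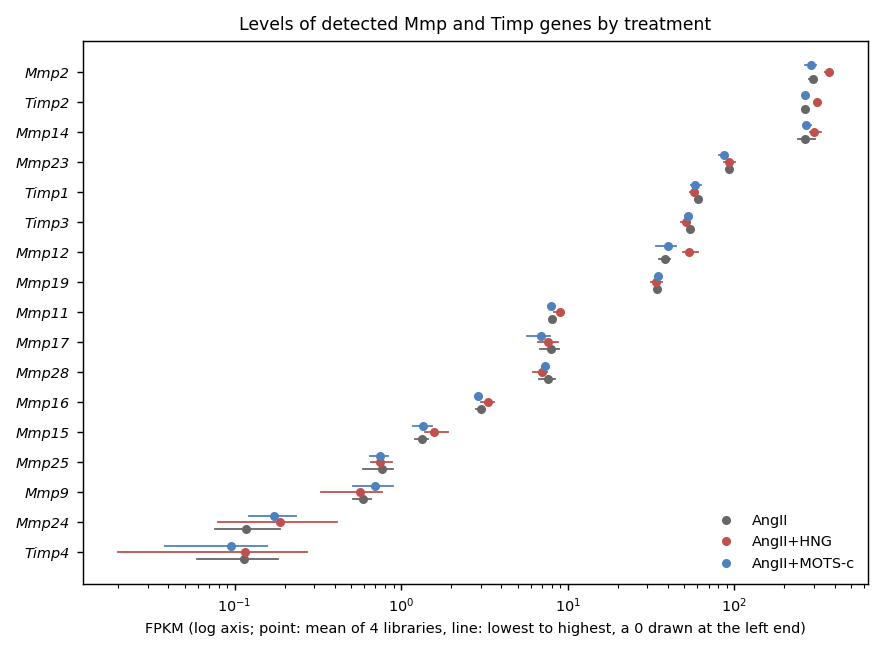
FPKM on a log axis by treatment, for each Mmp and Timp gene averaging 0.1 CPM or more. Points are means of 4 libraries and lines run from the lowest to the highest library, and 1 AngII+HNG library had 0 counts for Timp4. Mmp2, Timp2 and Mmp14 lie together at the top, with mean levels of 279 to 319 FPKM over all libraries.

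Mmp2 was higher with HNG. Mmp2 is gelatinase A, which degrades denatured collagen and basement membrane collagen. Its level was 300.2, 303.1, 279.4 and 307.7 FPKM in AngII replicates 1 to 4. With HNG it was 350.5, 379.7, 369.7 and 389.5 FPKM. All 4 AngII+HNG libraries were above the highest AngII library. The means were 298 ± 12.5 FPKM and 372 ± 16.7 FPKM (SD, n = 4), and the fitted difference in counts was 23.5%, or 0.30 on the log2 scale (SE 0.044, adjusted p = 0.00161). Each library held 24633 to 45744 Mmp2 counts, so counting error was 0.536% of the mean against a spread between replicates of 4.20% in AngII and 4.48% with HNG. Mmp2 took 37.9 to 41.3% of the summed FPKM of all 23 Mmp rows in AngII, 41.7 to 43.6% with HNG and 36.7 to 41.0% with MOTS-c. Mmp2 is part of that sum, so its share is not a result separate from its level.

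Of the 10 members, 8 passed the filter on low counts in this comparison and 2 of these were called at an adjusted p below 0.05, both higher and none lower. Among all 14524 genes tested, 3.40% were called higher and 2.58% lower. Calls on FPKM gave another split over all genes, 475 higher and 220 lower against 494 and 375 on counts, with the same number of members called. The groups did not overlap for 3 of the 8 members, against 13.6% of all genes. The median log2 difference of the 8 members was 0.055, against 0.0043 over all genes.

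**Figure D2:**
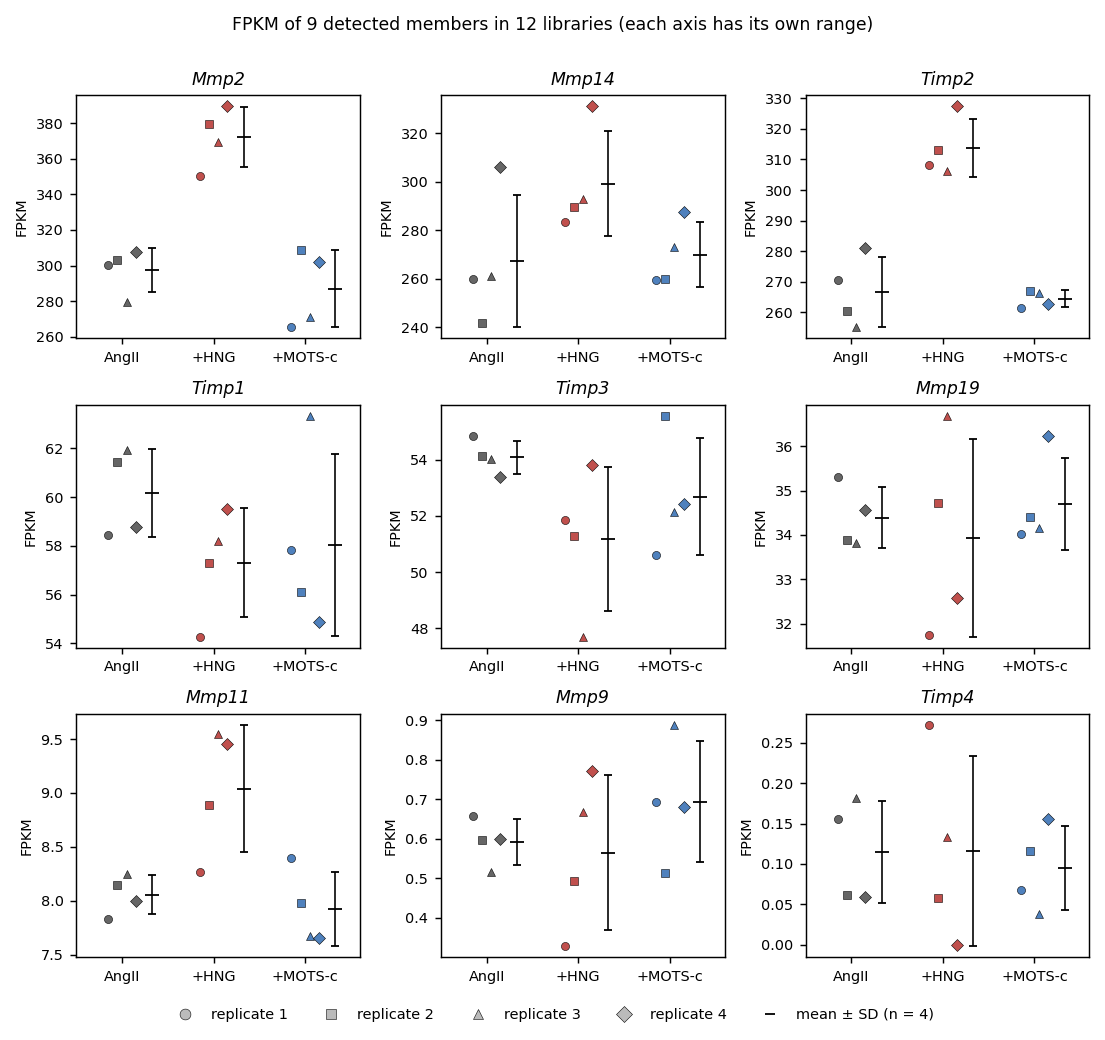
FPKM of the 9 detected members in each of the 12 libraries, with a separate axis range in every panel. Symbols mark the replicate number and black bars the mean ± SD of 4 libraries. For Mmp2 and Timp2 all AngII+HNG libraries lie above all others, at 350.5 to 389.5 FPKM and 306.1 to 327.4 FPKM.

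Timp2 was the second member called. It inhibits a broad range of metalloproteinases and joins proMmp2 to Mmp14. Timp2 was at 270.6, 260.3, 255.1 and 281.0 FPKM in AngII replicates 1 to 4. With HNG it was at 308.1, 313.2, 306.1 and 327.4 FPKM. The groups were separated by the gap between AngII replicate 4 and AngII+HNG replicate 3. The fitted difference was 15.2%, or 0.20 on the log2 scale (SE 0.044, adjusted p = 0.0151). The call depended on the AngII libraries: the adjusted p was 0.0532 without AngII replicate 1, 0.0670 without replicate 2 and 0.0650 without replicate 3, and 0.0551 with the counts of replicates 2 and 3 of each group summed. The log2 difference stayed at 0.18 to 0.24 under all 19 alternatives. Timp2 made up 68.7 to 71.5% of the summed TIMP FPKM in AngII and 74.2 to 74.3% with HNG.

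The Timp2 gene region also holds Cep295nl in the RefSeq annotation, with 82 to 137 counts a library against 19877 or more for Timp2. Timp1, Timp3 and Timp4 likewise overlap the synapsin genes Syn1, Syn3 and Syn2, whose counts were 13 to 32, 38 to 95 and 9 to 30. Mmp11 overlaps Chchd10, at 210 to 393 counts. Whether strand was used in counting is not given in the sources used here, so reads in shared stretches cannot be assigned with certainty, and this bears most on Timp4.

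Upstream sequences were available for only some of the members. Of the 10 members, 6 were in the RefSeq promoter table (GRCr8), and Mmp2, Mmp9, Mmp14 and Mmp19 were not. The 250 bases before the start of Timp2, the inhibitor that was called, and of Mmp3, the member without a count, are printed 5′ to 3′ on the strand of the gene, with motif matches in capitals. Timp2 lies on the minus strand at chr10:104089215-104089464 and Mmp3 on the plus strand at chr8:12925031-12925280.
Timp2: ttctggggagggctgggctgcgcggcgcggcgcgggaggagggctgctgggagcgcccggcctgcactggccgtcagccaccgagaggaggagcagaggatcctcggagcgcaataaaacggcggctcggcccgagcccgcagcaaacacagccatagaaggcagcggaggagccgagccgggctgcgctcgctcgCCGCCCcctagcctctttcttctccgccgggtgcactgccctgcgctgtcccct
Mmp3: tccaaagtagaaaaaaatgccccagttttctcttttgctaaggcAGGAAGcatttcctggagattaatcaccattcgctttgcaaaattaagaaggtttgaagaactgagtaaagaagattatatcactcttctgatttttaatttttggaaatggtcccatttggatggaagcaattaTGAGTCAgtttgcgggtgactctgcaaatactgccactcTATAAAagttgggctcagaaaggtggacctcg
The motifs searched on both strands were an AP-1 site (TGANTCA), a PEA3 site bound by Ets factors (AGGAAG), a GC box (GGGCGG) and a TATA box (TATAAA). The Timp2 window had 72% G+C, 27 CpG and 1 GC box, read on the opposite strand 54 bases before the start, and none of the other 3 motifs. The Mmp3 window had 38.8% G+C, 3 CpG, an AP-1 match 71 bases, a PEA3 match 206 bases and a TATA match 32 bases before the start. The median window of 33469 promoters had 51.2% G+C and 5 CpG, and the 4 motifs were in 6.34%, 29.51%, 30.47% and 12.93% of them. Of the other 4 members in the table, Mmp11 and Timp3 had 3 GC boxes each, Timp1 had 1 GC box and 2 PEA3 matches, and Timp4 had 1 PEA3 match. In G+C, Mmp11 had 66%, Timp3 69.6%, Timp1 61.2% and Timp4 50.8%. The windows of Timp2 and Mmp3 were thus the highest and the lowest of the 6. A match is a description of the letters and not evidence of binding.

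Mmp14 did not pass the test. Mmp14 is membrane-type 1 metalloproteinase, which cuts fibrillar collagen at the cell surface and activates proMmp2. It was at 259.9, 242.0, 261.1 and 305.9 FPKM in AngII replicates 1 to 4. With HNG it was at 283.2, 289.4, 292.7 and 331.0 FPKM. AngII replicate 4 was above 3 of the 4 AngII+HNG libraries, so the groups overlapped. The fitted log2 difference was 0.14 (95% interval -0.0051 to 0.29, adjusted p = 0.267). Without AngII replicate 4 it was 0.22 with an adjusted p of 0.0441, and without AngII+HNG replicate 4 it was 0.093 with an adjusted p of 0.503. Of 19 alternatives, 3 called Mmp14 higher, among them the fits with the replicate number or the library name number as a block.

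Replicate 4 was the highest library for Mmp14 in each of the 3 groups, at 305.9, 331.0 and 287.7 FPKM. Over all genes kept in the 12 libraries, 5.18% had replicate 4 highest in every group and 4.63% had it lowest in every group. Timp2 was also highest in replicate 4 of AngII and of AngII+HNG, but not in AngII+MOTS-c, where replicate 3 was higher in CPM and replicates 2 and 3 in FPKM. Without replicate 4 in both groups, 2 members were called between AngII+HNG and AngII.

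**Figure D3:**
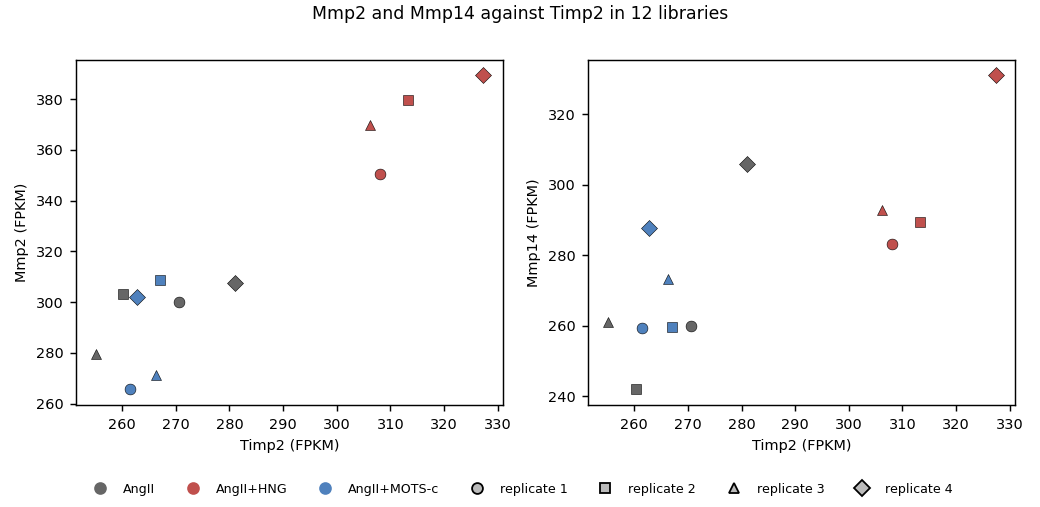
FPKM of Mmp2 (left) and Mmp14 (right) against that of Timp2, with 1 point per library, colours for treatment and symbols for replicate number. The AngII+HNG libraries lie apart along the Timp2 axis, above 306 FPKM, whereas along the Mmp14 axis AngII replicate 4, at 305.9 FPKM, and AngII+MOTS-c replicate 4, at 287.7 FPKM, lie among them.

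Across the 12 libraries, log2 CPM of Mmp2 and Timp2 had a Pearson correlation of 0.921, and 0.538 after each group's mean was subtracted. The same values were 0.799 and 0.857 for Mmp14 and Timp2, and 0.633 and 0.391 for Mmp2 and Mmp14. These describe libraries that share groups and a replicate 4 that stood high for Mmp14. The ratio of Timp2 to Mmp2 FPKM was 0.859 to 0.913 in AngII and 0.825 to 0.879 with HNG, which overlapped. The summed TIMP FPKM divided by the summed Mmp FPKM was 0.484 to 0.512 in AngII, 0.467 to 0.493 with HNG and 0.478 to 0.516 with MOTS-c, and all 3 ranges overlapped.

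Mmp11, stromelysin 3, is known from the stroma of remodelling tissue. It was at 7.84, 8.15, 8.25 and 7.999 FPKM in AngII and at 8.27, 8.89, 9.54 and 9.46 FPKM with HNG. The groups were separated in FPKM, narrowly, but overlapped in CPM. The log2 difference was 0.15 (SE 0.060, adjusted p = 0.180). Mmp19, a secreted metalloproteinase that cuts basement membrane proteins, ranged from 33.8 to 35.3 FPKM in AngII and from 31.7 to 36.7 FPKM with HNG, a log2 difference of -0.033 (SE 0.046, adjusted p = 0.759). The AngII values of Mmp19 lay inside the AngII+HNG range.

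Mmp9 is gelatinase B, which is abundant in neutrophils and macrophages. It had few reads, with 79, 66, 54 and 72 counts in AngII and 29, 59, 69 and 85 counts with HNG. The log2 difference of -0.082 had a wide 95% interval, -0.57 to 0.40 (adjusted p = 0.893), which includes a change as large as that of Mmp2. The spread of Mmp9 between replicates was 9.86% in AngII, 34.6% with HNG and 22.03% with MOTS-c, against counting errors of 12.1%, 12.9% and 11.8%. Mmp3, stromelysin 1, had 0 counts in every library, and 3 counts over the 12 libraries would correspond to 0.00729 CPM.

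None of the other TIMPs was called with HNG. Timp1, an inducible secreted inhibitor, was at 58.4, 61.5, 61.9 and 58.8 FPKM in AngII and 54.3, 57.3, 58.2 and 59.5 FPKM with HNG. The groups overlapped, and the log2 difference was -0.082 (SE 0.048, adjusted p = 0.381). Timp3, which is retained in the matrix and also inhibits ADAM proteases, was at 54.8, 54.1, 54.0 and 53.4 FPKM in AngII and 51.9, 51.3, 47.7 and 53.8 FPKM with HNG. In CPM, all AngII+HNG libraries were below all AngII libraries, but in FPKM AngII+HNG replicate 4 was above AngII replicate 4. The log2 difference of Timp3 was -0.099 (95% interval -0.19 to -0.0098, adjusted p = 0.197). Timp4 had 11, 4, 11 and 4 counts in AngII, 14, 4, 8 and 0 with HNG and 4, 8, 2 and 9 with MOTS-c, too few to be tested. The count of 0 in AngII+HNG replicate 4 allows up to 0.0843 CPM, which covers counting error only.

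**Figure D4:**
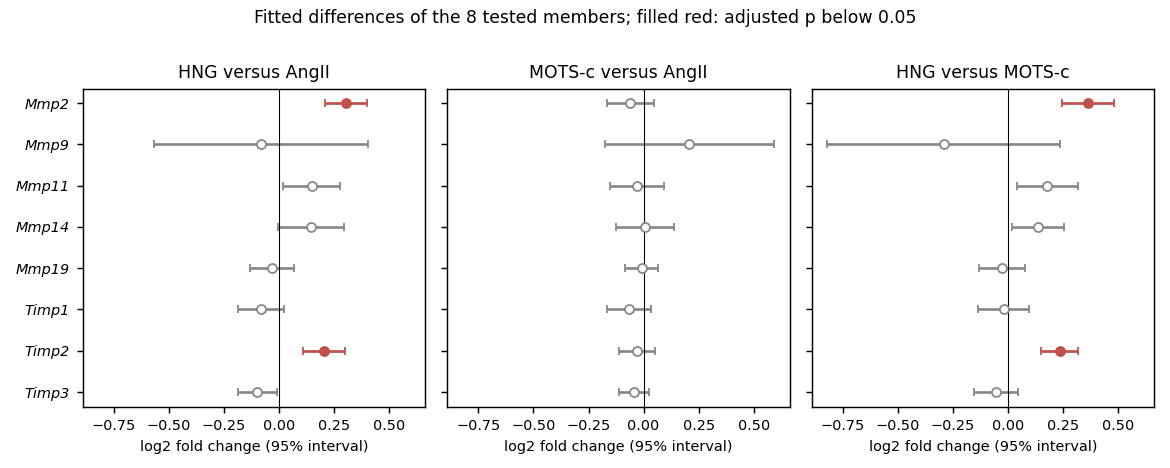
Fitted log2 fold changes of the 8 tested members with 95% intervals in the 3 comparisons. Filled red points have an adjusted p below 0.05: Mmp2 and Timp2 between AngII+HNG and AngII (0.30 and 0.20) and between AngII+HNG and AngII+MOTS-c (0.36 and 0.23).

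With MOTS-c no member was called. Mmp2 was at 265.6, 308.8, 271.3 and 302.0 FPKM, on both sides of the AngII values, and its log2 difference from AngII was -0.061 (95% interval -0.17 to 0.047, adjusted p = 0.939). Timp2 was at 261.5, 267.0, 266.4 and 262.8 FPKM, all within the AngII range, with a log2 difference of -0.031 (95% interval -0.11 to 0.051). In CPM, AngII+MOTS-c replicate 1, at 663.8, was below the lowest AngII library, at 669.7. Mmp14 was at 259.3, 259.7, 273.2 and 287.7 FPKM, with a log2 difference of 0.0068 (95% interval -0.13 to 0.14). The upper ends of the Mmp2 and Timp2 intervals were below the differences fitted for HNG.

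The remaining 5 tested members differed from AngII by -0.065 for Timp1, -0.045 for Timp3, -0.031 for Mmp11, -0.0078 for Mmp19 and 0.21 for Mmp9 on the log2 scale, with adjusted p-values of 0.926 or more. The 95% interval of Mmp9 ran from -0.18 to 0.59. With MOTS-c, Timp1 ranged from 54.9 to 63.3 FPKM, Timp3 from 50.6 to 55.6 FPKM, Mmp19 from 34.0 to 36.2 FPKM, Mmp11 from 7.65 to 8.39 FPKM and Mmp9 from 0.514 to 0.888 FPKM. In edgeR only 1 of all 14488 genes was called, 0.00690%, and DESeq2 called 3, while 732 genes had an unadjusted p below 0.05. The groups overlapped for all 8 tested members, against 3.44% of all genes without overlap. This comparison uses the same AngII libraries as the one with HNG, so their values are not independent.

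The 2 peptide groups were compared directly, without the AngII libraries. Mmp2 was 28.6% higher with HNG than with MOTS-c, 0.36 on the log2 scale (SE 0.054, adjusted p = 0.00290). Timp2 was 17.6% higher, 0.23 on the log2 scale (SE 0.038, adjusted p = 0.00436). For both, the lowest AngII+HNG library was above the highest AngII+MOTS-c library. These calls were kept under all 19 alternatives, with adjusted p-values up to 0.0147 for Mmp2 and 0.0276 for Timp2.

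The other members were not called between the peptides. Mmp14 differed by 0.13 (adjusted p = 0.199) and Mmp11 by 0.18 (adjusted p = 0.147) on the log2 scale, both with 95% intervals above 0. Of 19 alternatives, 1 called Mmp14, the edgeR fit with the replicate number as a block (adjusted p = 0.0378). Mmp9 differed by -0.29, with a 95% interval of -0.82 to 0.23, and Mmp19, Timp1 and Timp3 by -0.028, -0.020 and -0.056. Of 14448 genes tested, 2.64% were called higher and 1.77% lower with HNG, and 12.5% did not overlap, against 2 of the 8 tested members called higher and without overlap. On FPKM, 340 genes were higher and 128 lower, against 381 and 256 on counts.

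Of the 16 other metalloproteinase genes listed, 3 had 0 counts in every library and 8 were tested. In AngII+HNG against AngII, 1 of the 8 was called higher and none lower, against 3.40% and 2.58% of all genes, and 1 call is no result about the list. This was Mmp12, macrophage metalloelastase, which degrades elastin. It was at 69.6, 66.1, 74.6 and 78.0 CPM in AngII, at 95.5, 91.3, 100.2 and 111.9 CPM with HNG and at 83.7, 63.3, 80.6 and 73.3 CPM with MOTS-c. All AngII+HNG libraries were above all others. The log2 difference was 0.47 from AngII (SE 0.066, adjusted p = 0.00148) and 0.41 from MOTS-c (SE 0.083, adjusted p = 0.0143). Without replicate 4 in both groups, the adjusted p between the peptides was 0.0902.

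After Mmp2 and Mmp14 the most abundant metalloproteinase per length was Mmp23, a type II membrane protein, at a mean of 90.9 FPKM (122 CPM) over the 12 libraries. It was within 0.10 of AngII on the log2 scale with either peptide. Mmp16, a membrane-type enzyme, averaged 36.8 CPM, with a log2 difference of 0.13 with HNG (adjusted p = 0.312). Mmp17, Mmp28, Mmp15 and Mmp25 averaged 27.8, 12.0, 5.68 and 2.95 CPM, and their log2 differences with HNG were -0.064, -0.13, 0.22 and -0.053, none called. Mmp24, the eighth gene tested, named here after its values were seen, averaged 0.718 CPM and ranged from 10 to 65 counts a library, with a log2 difference of 0.63 with HNG (95% interval -0.38 to 1.64, adjusted p = 0.506). The remaining genes of that list averaged under 1 CPM.

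Genes that activate, restrain or clear the proteases were examined as a list of 40, of which 38 were tested. With HNG 3 were called higher and 2 lower, against 3.40% and 2.58% of all genes, with a median log2 difference of 0.0077 against 0.0043 over all genes. The list holds genes of opposite roles, and its calls went both ways.

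Plau, urokinase, which makes plasmin and so starts a cascade that activates metalloproteinases, was at 18.2, 17.6, 22.1 and 22.8 CPM in AngII and at 23.6, 25.8, 29.8 and 30.2 CPM with HNG. All AngII+HNG libraries were higher, by 0.44 on the log2 scale (SE 0.099, adjusted p = 0.0187). Plau was not called between the peptides, with a log2 difference of 0.40 (adjusted p = 0.0645), although 5 of 19 alternatives did call it, with an adjusted p of 0.00954 by DESeq2 and 0.0445 without AngII+HNG replicate 1. Against AngII, Plau had an adjusted p of 0.0797, 0.0706 and 0.0559 without AngII replicate 1, AngII replicate 2 or AngII+HNG replicate 4.

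**Figure D5:**
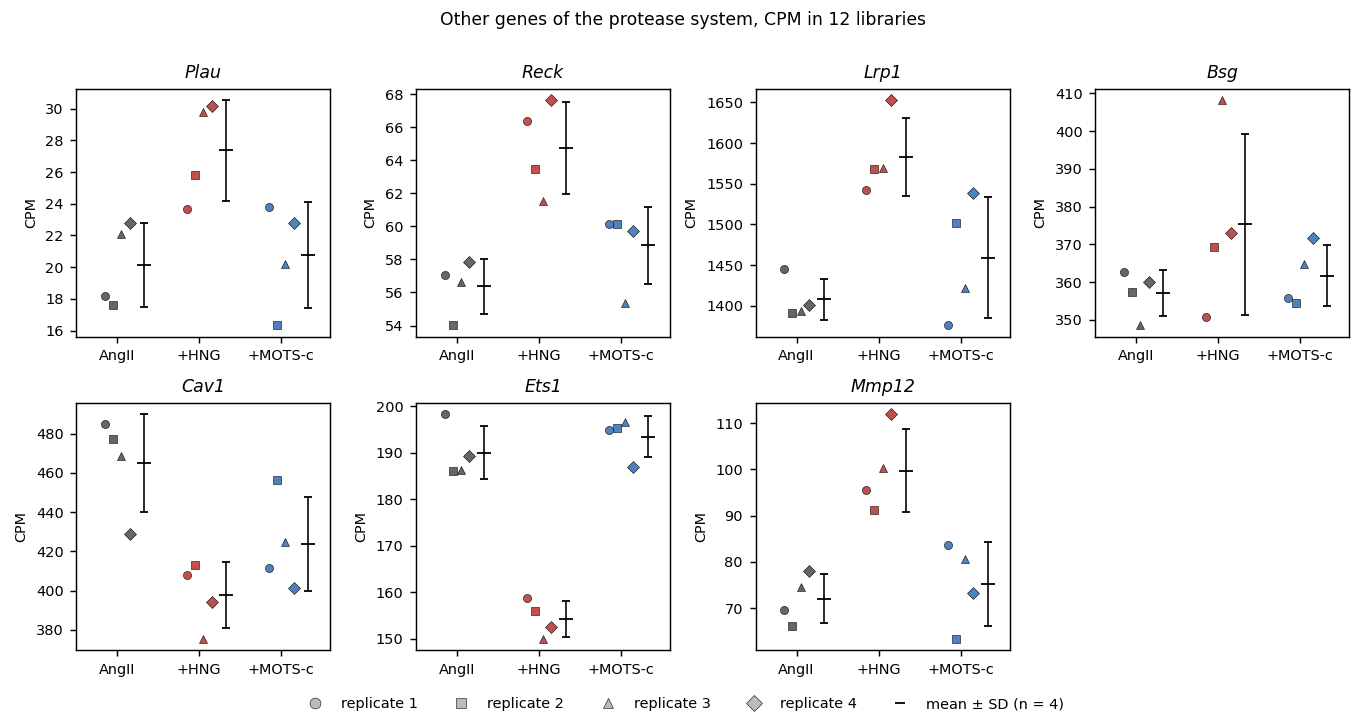
CPM in each of the 12 libraries of 6 genes that regulate or clear metalloproteinases and of Mmp12, with a separate axis range in every panel. Symbols mark the replicate number and black bars the mean ± SD of 4 libraries. Ets1 is lower in all AngII+HNG libraries than in all others, at 150 to 159 CPM.

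Reck, a membrane-anchored inhibitor of Mmp2, Mmp9 and Mmp14, was at 57.0, 54.0, 56.6 and 57.8 CPM in AngII and at 66.3, 63.4, 61.5 and 67.6 CPM with HNG. The groups did not overlap, and the log2 difference was 0.20 (SE 0.045, adjusted p = 0.0188). The adjusted p rose to 0.0594, 0.0749, 0.0553 and 0.0575 without AngII replicate 1, 2 or 3 or AngII+HNG replicate 4, and to 0.0704 without replicate 4 in both groups. Lrp1, an endocytic receptor that removes metalloproteinases and their inhibitors from the cell surface, rose from a mean of 1408 CPM to 1583 CPM, 0.17 on the log2 scale (SE 0.035, adjusted p = 0.0120). Its adjusted p was 0.05002 without AngII replicate 2, 0.0508 without AngII replicate 3 and 0.0578 without replicate 4 in both groups.

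Ets1, a transcription factor known to bind PEA3 sites of metalloproteinase promoters, was at 198, 186, 186 and 189 CPM in AngII, at 159, 156, 150 and 153 CPM with HNG and at 195, 195, 197 and 187 CPM with MOTS-c. The AngII+HNG libraries were below all others, by -0.30 from AngII (SE 0.037, adjusted p = 0.000662) and by -0.33 from MOTS-c (SE 0.037, adjusted p = 0.000573) on the log2 scale. Cav1, the caveola protein caveolin 1, fell from a mean of 465 CPM to 398 CPM with HNG, a log2 difference of -0.22 (SE 0.046, adjusted p = 0.0127), which had an adjusted p of 0.0540 without AngII replicate 1. Bsg, which encodes the metalloproteinase inducer basigin, was at 357 ± 6.11 CPM in AngII and 375 ± 24.0 CPM with HNG (SD, n = 4) and was not called (adjusted p = 0.409). No gene of the list was called with MOTS-c, where Cav1 differed from AngII by -0.13 on the log2 scale. Between the peptides Ets1 was the only gene of the list called, so Reck, Lrp1 and Cav1 were not.

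Marker genes of other cells differed between the same groups, where 3.40% of all genes were called higher and 2.58% lower. The 14 macrophage markers summed to 288 to 346 CPM in AngII, 383.8 to 503.6 CPM with HNG and 282 to 342 CPM with MOTS-c, and 4 of the 13 tested were called higher with HNG: Cd68, Ptprc, Lyz2 and Mrc1. The complement genes C1qa, C1qb and C1qc and Adgre1 had means of 5.31, 3.77, 2.43 and 3.37 CPM in AngII and of 5.68, 3.64, 1.80 and 2.62 CPM with HNG. None of the macrophage markers was at 0 in all libraries. The 10 endothelial markers summed to 134 to 148 CPM in AngII and 147 to 156 CPM with HNG, with 4 called higher and 1 lower. The 10 smooth muscle and pericyte markers summed to 7468 to 7756 CPM in AngII and 5938 to 6458 CPM with HNG, with 6 called lower, Acta2 among them, which activated fibroblasts also express. The 10 fibroblast markers included 2 called higher, Tcf21 and Thy1. Of the 11 cardiomyocyte markers 1 was called higher, Tnni3 (log2 difference 0.43, adjusted p = 0.0131), as was 1 of the 6 epicardial markers, Upk1b (0.81, adjusted p = 0.00776), while the edgeR test called none of the 6 tested Schwann cell markers, the lowest unadjusted p being 0.116 for S100b. The part of these shifts in the differences of Mmp2, Timp2, Mmp12 and the regulators was not tested.

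The genes whose log2 CPM followed Mmp2 most closely over the 12 libraries, among 10460 candidates, were Plekha6, Aqp1 and Cd34, with Pearson correlations of 0.970, 0.967 and 0.967. After the mean of each group was subtracted these were 0.867, 0.785 and 0.874. For Timp2 they were Stom, Entpd1 and C1r, at 0.973, 0.968 and 0.965, and at 0.849, 0.813 and 0.790 within groups. The values describe libraries that share groups, and no test was made.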

How the data were processed

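The mRNA was sequenced by the authors from both ends of each fragment (DNBSEQ). They deposited raw counts of reads per gene for 12 libraries. A second deposited table gives FPKM, in which the authors scaled reads by gene length and depth. The submitters' processing notes name HISAT2, Picard 1.41 and SAMtools 0.1.18 without a role. Which tool counted the reads, with what strand setting and on which build is not given in the sources used here. Groups and replicate numbers came from the sample titles, and doses and times from the labels and the study's methods.

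Differences between groups were fitted to the counts with edgeR 4.0.16 under R 4.3.3 (filterByExpr, TMM, glmQLFit and glmQLFTest on the 8 libraries of each comparison, Benjamini-Hochberg adjustment over all genes tested, threshold 0.05). Standard errors were derived from the F statistic and intervals are 95% intervals. CPM used TMM factors over 12 libraries, and log2 CPM a prior count of 2. Depth was 27960586 to 38322354 counts per library, and intervals of counts cover counting error only. Scripts were tested on simulated data. The alternatives were DESeq2 1.42.0, RLE factors, other filters, 1 fit of all libraries, blocks, summed replicates, limma 3.58.1 on log2(FPKM + 1) and log2(FPKM + 0.1), and left-out libraries.

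The members and gene lists were chosen with earlier results of these data known. The genes named were all members, other metalloproteinases with at least 1 CPM on average, up to 10 regulators called in any comparison plus Plau, Reck and Bsg, and the 3 genes most like each called member. A further gene of the planned regulator list is not reported here. Motifs, and the markers named singly, were chosen after values were seen.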

Additional observations from a re-analysis of the deposited data

Results flagged for a closer look

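Library AngII+HNG replicate 4 stood high and apart from the other 3 of its group for Mmp14 and for Timp2. The gap to the next library was 0.8292 of the group's range for Mmp14 and 0.838 for Timp2 on the log2 CPM scale, both above the 95% critical value of Dixon's test. This was looked for in 27 groups of member values, of which chance flags about 1 in 20. Both genes kept their direction without this library, with log2 differences from AngII of 0.093 for Mmp14 and 0.18 for Timp2.

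Addition of HNG and of MOTS-c to AngII differed in a direct test for Mmp2, by 0.363 on the log2 scale, and for Timp2, by 0.233, both higher with HNG, without overlap of the groups.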

How the results depend on the processing

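Of 456 log2 differences of members under 19 alternatives, 432 kept their direction and their side of the threshold, 4 lost the call, 4 gained it and 16 turned sign, none of them called. CPM per kilobase gave no independent check of mean FPKM, since the gene lengths were derived from the FPKM values. Of 266 values of 7 other named genes, added after seeing the data, 248 kept direction and call, 13 lost the call, 5 gained it and 0 turned sign. Mmp2 was called in all 19 alternatives of both comparisons with AngII+HNG.

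The replicate numbers did not pair the samples throughout. Correlations of deviations between same-numbered libraries were -0.076 to 0.136 between AngII+HNG and AngII and 2.9e-05 to 0.119 between AngII+MOTS-c and AngII. Between the peptides they were -0.014 to 0.212. In these comparisons 1, 2 and 2 of 4 libraries were most like their own number. Replicate 4 was among them each time, with correlations of 0.136, 0.119 and 0.212. With the replicate number as a replicate block, 1111, 2 and 1054 genes were called in these comparisons, and 3, 0 and 3 members, Mmp14 being the third (adjusted p = 0.0296 and 0.0378). With the library name number as a block Mmp14 was also called against AngII (adjusted p = 0.0320).

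In HNG against AngII, 869 genes were called, 577 with replicates 2 and 3 summed (1 member), 541 without replicate 4 in both groups, and 431 to 932 (1 to 3 members) with 1 library left out. In MOTS-c against AngII 1 gene was called, 3 by DESeq2 and 0 by the fit of 12 libraries, with summed replicates, by limma at either pseudocount or without replicate 4, and 0 to 3 with 1 library left out. Between the peptides 637 were called, 1042 by DESeq2, 1015 by the fit of 12 libraries, 377 without replicate 4, and 322 to 625 with 1 library left out.

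Values that turned sign for MOTS-c against AngII were Mmp19 (0.022 with the name block, 0.0124 and 0.0127 by limma) and Mmp14 (-0.016 with summed replicates). Between the peptides Timp1 (0.0048, name block) and Mmp19 (0.016 without replicate 4) did so. With 1 library left out, Mmp9 ranged from -0.26 to 0.093 in HNG against AngII. For MOTS-c against AngII, Mmp14 ranged from -0.039 to 0.080, Mmp19 from -0.030 to 0.0079 and Timp2 from -0.053 to 0.0031. Between the peptides, Timp1 ranged from -0.055 to 0.012 and Mmp19 from -0.060 to 0.016, replicate 4 of both groups included as a setting. The cause was not tested in any of these cases. Depth limits what can be said of Timp4. For Mmp3, at 0 counts in every library, the limit is that the counting tool and build are not given.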
